A study of Homo sapiens with 35 samples.

Results

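The cadherin switch genes and the transcription factors and matrix genes of epithelial-mesenchymal transition (EMT) form a set of 9: the cadherins CDH1 and CDH2, the factors SNAI1, SNAI2, ZEB1, ZEB2 and TWIST1, and the mesenchymal genes VIM and FN1. They were chosen by name among the 58581 genes of the count table, and all 9 passed the low-count filter that left 21554 genes for testing. In EMT, epithelial cells lose E-cadherin junctions and take up N-cadherin, vimentin and fibronectin. SNAIL, ZEB and TWIST proteins bind E-box DNA motifs and repress epithelial genes, CDH1 first among them. Cells of the primitive streak pass through this change in the embryo when they leave the epiblast and form mesoderm and endoderm.

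H9, an established human embryonic stem cell line, was seeded as single cells and its mRNA sequenced in 35 libraries. BA medium adds Activin A and BMP4 to E6, each at 40 ng/mL, and induces mesendoderm. E6 without them is the control for spontaneous differentiation, E8 is the pluripotency medium, and t0 cells were taken at the start. Cells were sampled every 6 h for 48 h, with 3 replicates in BA at 24 and 48 h, E6 at 48 h, E8 at 48 h and t0, and 1 library in each of the other 20 groups. All groups are the same line, and whether replicates were separate cultures is not given in the labels, so p-values measure the spread between these libraries, which may be technical.

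Library totals were 11793453 to 37191969 counts. Levels are depth-scaled counts (CPM) with TMM scaling, and a call is a Benjamini-Hochberg adjusted p below 0.05 in the edgeR quasi-likelihood test over all genes. Libraries fell into a pair of sets: the 25 that are replicate 1 or single, called the hourly series below, and the 10 that are replicate 2 or 3. The lowest mean correlation of an hourly library with the rest of its set was 0.951 (BA at 48 h, replicate 1), and the highest with replicates 2 and 3 was 0.938 (E6 at 18 h). What separates the sets is not given in the labels, so the members' levels are given in both. Summed primitive streak markers were 160 to 2893 CPM in BA from 30 to 48 h (median 2072), 2.49 to 15.8 CPM in E6, 3.07 to 12.4 CPM in E8 and 3.53 to 4.90 CPM at t0. In BA at 48 h all of these markers but NODAL were higher in replicate 1 than in replicates 2 and 3. There MIXL1 had 701, 32.0 and 37.3 CPM, TBXT 91.1, 26.8 and 23.2 CPM, and NODAL 2.23, 14.6 and 14.7 CPM, in replicates 1, 2 and 3. The summed lists of other cell types were 84.4 to 193 CPM in BA from 30 to 48 h, 31.9 to 138 CPM in E6, 34.2 to 144 CPM in E8 and 75.0 to 116 CPM at t0 for neural crest. For fibroblasts they were 543 to 1091, 313 to 749, 443 to 691 and 599 to 736 CPM in the same order of groups. For blood and endothelium they were 192 to 452, 71.7 to 192, 84.9 to 170.4 and 79.1 to 138 CPM, and for neuroectoderm 24.8 to 220.3, 35.8 to 287, 25.5 to 61.3 and 49.9 to 72.2 CPM. SOX10, TFAP2B and PAX3 of neural crest, DCN and LUM of fibroblasts and PECAM1, CD34 and PTPRC of blood and endothelium had medians under 1 CPM in every group. ETS1, COL1A1, COL1A2, THY1, PDGFRA, CDH5, KDR and TEK of those lists had such a median in no group. FOXD3 had it only in BA from 30 to 48 h, PAX7 everywhere but there, and COL3A1 only at t0. These medians pool both sets of libraries. COL3A1 had 8.31 CPM in t0 replicate 1, and at most 0.212 CPM in any library of replicates 2 and 3. In BA from 30 to 48 h, FOXD3 had at most 0.908 CPM in the hourly series, with 14.8 and 10.6 CPM in replicates 2 and 3. PAX7 had 0.748 to 3.53 CPM there in the hourly series, with 0.292 and 0.242 CPM in replicates 2 and 3. HES5 and ZIC1 of neuroectoderm were under 1 CPM in every group by median. SOX1 and LHX2 were not under it in E6 and E8, LHX2 not in BA from 6 to 24 h, and PAX6 not in E8. The part of such cells in the results was not tested. In bulk RNA, fewer cells that express a gene and less RNA per cell cannot be told apart.

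CDH1, which encodes E-cadherin, the adhesion molecule of epithelial junctions, lies at chromosome 16, 68737225 to 68835548 (GRCh38, plus strand). In the hourly BA series it had 99.4, 128, 199, 183, 191, 129, 22.6 and 42.3 CPM at 6, 12, 18, 24, 30, 36, 42 and 48 h, against 84.0 CPM in t0 replicate 1. The level was thus above t0 up to 36 h and below it at 42 and 48 h. In E6 the 8 libraries of that series lay between 102 and 180.5 CPM (median 122), and in E8 between 18.6 and 138 CPM (median 116). In replicates 2 and 3, CDH1 had 423 and 441 CPM in BA at 48 h, 223 and 234 CPM in BA at 24 h, 389 and 369.6 CPM in E6 at 48 h, 278 and 250.0 CPM in E8 at 48 h, and 152 and 141 CPM at t0. Here BA at 48 h was the highest group, the opposite place to that of replicate 1.

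CDH2, which encodes N-cadherin, the cadherin of mesenchymal and neural cells, lies at chromosome 18, 27950966 to 28177446 (minus strand). It had 465, 363, 246, 280.2, 407, 614, 836 and 734 CPM at the same hours in BA, against 446 CPM in t0 replicate 1. The level dipped at 18 h and was highest at 42 h. E6 libraries lay between 144 and 381 CPM (median 273) and E8 libraries between 207 and 386 CPM (median 289). In replicates 2 and 3 it had 123 and 149 CPM in BA at 48 h, 103 and 125 CPM in BA at 24 h, 99.7 and 100.3 CPM in E6 at 48 h, 117 and 118 CPM in E8 at 48 h, and 139 and 174 CPM at t0. These values span less than the hourly BA libraries do among themselves, and BA at 48 h overlapped t0.

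The balance of the cadherins was read as the ratio of CDH1 to CDH2 counts in each library, on the log2 scale. It was -4.12, 1.78 and 1.57 in BA at 48 h, -0.61, 1.12 and 0.90 in BA at 24 h, -0.49, 1.96 and 1.88 in E6 at 48 h, -0.96, 1.24 and 1.08 in E8 at 48 h and -2.41, 0.13 and -0.30 at t0, in replicates 1, 2 and 3. A low ratio late in BA was present in the hourly series and absent from replicates 2 and 3, where the ratio was higher in BA at 48 h than at t0. The mean ratio was -0.26 ± 3.35 in BA at 48 h, 1.12 ± 1.39 in E6 at 48 h and -0.86 ± 1.36 at t0 (SD, n = 3 each). Neither difference passed an exact two-sided permutation test (p = 0.5 against E6 and p = 0.8 against t0, where 0.1 is the smallest p that 3 against 3 allows).

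**Figure D1:**
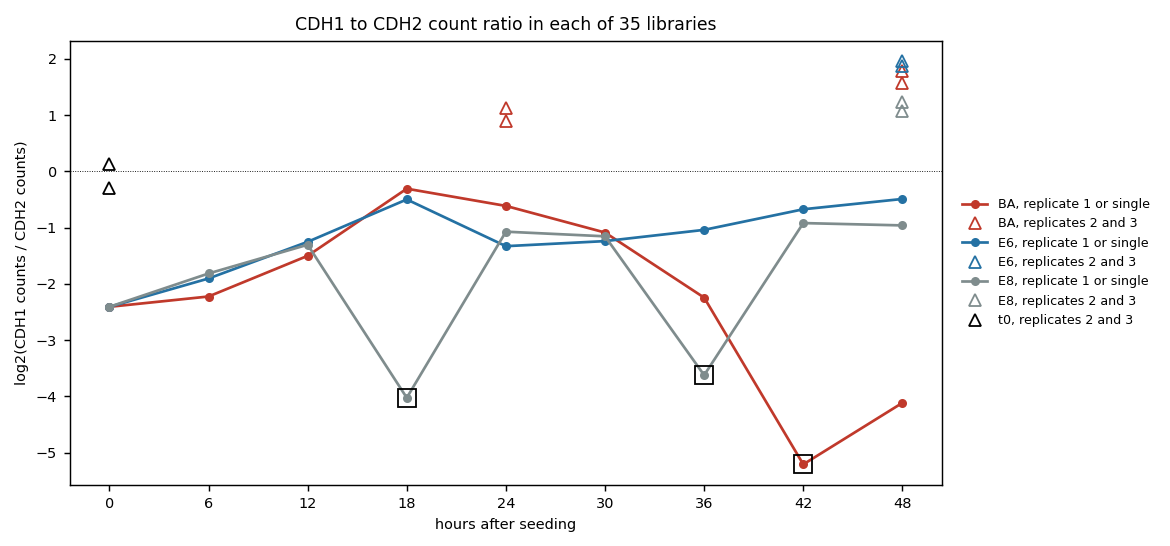
Log2 ratio of CDH1 to CDH2 counts (y axis) by hours after seeding (x axis) in each of 35 libraries, with lines and filled points for replicate 1 and single libraries, triangles for replicates 2 and 3, and black squares around BA at 42 h, E8 at 18 h and E8 at 36 h. The BA line ends at -4.12, while the BA triangles at 48 h sit at 1.78 and 1.57.

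Within the hourly series, 3 libraries were set apart because CDH1 is low in them: BA at 42 h with 22.6 CPM, E8 at 18 h with 18.6 CPM and E8 at 36 h with 25.1 CPM. Their low CDH1, and with it a low ratio to CDH2, follows from that choice and is no result. Their CDH1 to CDH2 log2 ratios were -5.21, -4.03 and -3.62. In E8 the hours on either side had 125 and 98.4 CPM around 18 h, and 123 and 138 CPM around 36 h, so both values are isolated. In BA the next library, at 48 h, was also low. Against the mean of the hours on either side, CDH2, SNAI2, ZEB1 and ZEB2 were higher in all 3 libraries and FN1 was lower. Some of these differences were small, such as 0.05 on the log2 scale for SNAI2 in E8 at 36 h. SNAI1, TWIST1 and VIM went both ways. ZEB2 had 39.9 CPM in E8 at 18 h, against 19.2 and 15.2 CPM at 12 and 24 h, and 46.4 CPM at 36 h, against 25.8 and 23.01 CPM at 30 and 42 h. FN1 had 1325 CPM in BA at 42 h, against 3091 and 3661 CPM at 36 and 48 h. In E8 it had 177 CPM at 18 h, against 310 and 201 CPM, and 202 CPM at 36 h, against 305 and 287 CPM. SNAI1 had 4.06 and 3.17 CPM in the E8 libraries, close to its neighbours. Epithelial genes were low in the same libraries: GRHL2, ESRP1 and ESRP2 were at least 2-fold below both neighbouring hours in all 3. Of 18 epithelial junction genes 6, 7 and 6 were so in BA at 42 h, E8 at 18 h and E8 at 36 h, where 1.24%, 1.10% and 1.30% of 11566 genes were. EPCAM, CLDN7, MARVELD3, ST14, SPINT1 and MAL2 were the 6 found in each. Whether these are states of the cells or of the libraries was not tested, since each is a single library.

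**Figure D2:**
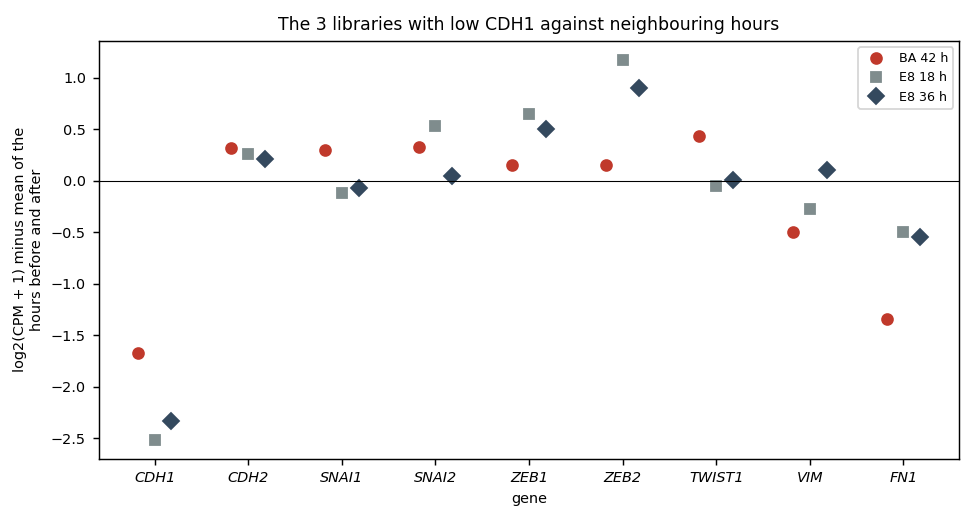
Log2(CPM + 1) of each gene (x axis) in BA at 42 h, E8 at 18 h and E8 at 36 h minus the mean of the hours before and after (y axis). CDH1 lies at -1.67, -2.51 and -2.33, which follows from the choice of these libraries by low CDH1. ZEB2 is at 1.18 and 0.90 in the E8 libraries.

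SNAI1, the SNAIL repressor that is induced in the primitive streak, lies at chromosome 20, 49982999 to 49988886 (plus strand). In the hourly BA series it had 5.82, 5.68, 3.87, 7.40, 13.7, 36.5, 54.5 and 53.1 CPM at 6 to 48 h, against 3.57 CPM in t0 replicate 1. E6 libraries stayed between 3.35 and 5.81 CPM and E8 libraries between 2.57 and 5.07 CPM, so BA was clear of both from 24 h on. In replicates 2 and 3 it had 22.7 and 20.4 CPM in BA at 48 h, 23.2 and 18.6 CPM in E6 at 48 h, 15.7 and 11.9 CPM in E8 at 48 h, and 9.17 and 8.38 CPM at t0. There BA overlapped E6.

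SNAI2, the SLUG repressor, lies at chromosome 8, 48917604 to 48921740 (minus strand). It had 3.37, 1.34, 2.44, 4.74, 12.2, 29.2, 62.1 and 82.9 CPM in the hourly BA series, against 5.17 CPM in t0 replicate 1. E6 libraries held 1.29 to 4.45 CPM and E8 libraries 2.25 to 4.44 CPM. The later hours in BA were far above both. In replicates 2 and 3 the level was 2.40 and 2.27 CPM in BA at 48 h, 1.19 and 0.717 CPM in E6 at 48 h, 3.32 and 3.74 CPM in E8 at 48 h, and 0.865 and 0.661 CPM at t0. BA at 48 h lay above E6 and t0 and below E8 there.

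TWIST1, a basic helix-loop-helix factor of mesoderm and neural crest (chromosome 7, 19020991 to 19117672, minus strand), was the rarest of the 9. It had 2.10, 3.02 and 3.21 CPM in BA at 48 h (32, 93 and 106 counts), 0, 0.650 and 0.344 CPM in E6 at 48 h, 0, 1.32 and 1.57 CPM in E8 at 48 h, and 0.320, 0.0641 and 0.243 CPM at t0. BA at 48 h did not overlap any of the other groups in either set of libraries. The hourly BA libraries reached 0.588, 1.05 and 2.42 CPM at 30, 36 and 42 h, while no hourly E6 or E8 library was above 0.173 CPM.

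ZEB1 and ZEB2, zinc finger repressors that bind E-boxes, separated the sets of libraries most. ZEB1 (chromosome 10, 31318495 to 31529814, plus strand) had 42.1, 1.14 and 1.94 CPM in BA at 48 h, 19.99, 2.40 and 2.44 CPM in E6 at 48 h, 25.8, 5.09 and 5.45 CPM in E8 at 48 h, and 43.9, 6.79 and 5.81 CPM at t0, in replicates 1, 2 and 3. ZEB2 (chromosome 2, 144364364 to 144524583, minus strand) had 101, 4.22 and 6.32 CPM in BA at 48 h, 38.1, 7.01 and 8.64 CPM in E6 at 48 h, 17.1, 0.998 and 1.63 CPM in E8 at 48 h, and 26.0, 2.69 and 2.96 CPM at t0. The highest value in replicates 2 and 3 was 6.79 CPM for ZEB1 and 8.64 CPM for ZEB2, and replicate 1 was above it in every group. In the hourly series the 1 library near those levels was E6 at 18 h, with 8.44 CPM of ZEB1 and 3.55 CPM of ZEB2. That library also had the lowest CDH2 and FN1 of the series, at 144 and 130.1 CPM, and 10.3% of 11566 genes at least 2-fold below both neighbouring hours. ZEB2 in the hourly BA series was lowest at 6 h with 32.3 CPM and highest at 48 h with 101 CPM.

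Of 7 RefSeq start sites of ZEB1, 1 has 3 E-boxes of the kind that SNAIL and ZEB proteins bind, and the window of 300 bases around it is shown because it holds the most copies. The motif is CACCTG or its reverse complement CAGGTG, in capitals, and 20.6% of 35116 promoter windows of that length hold at least 1. The window is chr10:31318966-31319265 (GRCh38.p14, plus strand, 250 bases before to 50 after the start). A second ZEB1 window held 1 copy, the other 5 held none, and the windows matched for CDH2, ZEB2, VIM and FN1 held none. RefSeq promoter windows matched 5 of the 9 genes, and 2 of their 12 windows hold the motif, a share no higher than that of all windows.
ZEB1: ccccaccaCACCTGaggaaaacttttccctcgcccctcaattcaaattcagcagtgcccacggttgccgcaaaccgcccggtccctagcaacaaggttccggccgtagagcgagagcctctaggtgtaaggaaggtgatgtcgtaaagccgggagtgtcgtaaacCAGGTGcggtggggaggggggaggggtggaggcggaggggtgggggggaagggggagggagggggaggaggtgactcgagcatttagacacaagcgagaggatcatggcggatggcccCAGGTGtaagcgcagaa

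VIM, the intermediate filament of mesenchymal cells (chromosome 10, 17228259 to 17237593, plus strand), had 499.9, 142 and 183 CPM in BA at 48 h, 141, 273 and 294 CPM in E6 at 48 h, 95.7, 176 and 176 CPM in E8 at 48 h, and 207, 214 and 277 CPM at t0. BA was highest in replicate 1, and in replicates 2 and 3 it was below E6. The 8 hourly libraries lay between 208 and 499.9 CPM in BA (median 261), 110.1 and 195 CPM in E6 (median 129.5), and 95.7 and 195 CPM in E8 (median 123).

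FN1, which encodes fibronectin, the matrix protein on which gastrulating mesoderm migrates, lies at chromosome 2, 215360440 to 215436172 (minus strand). It was the 1 member called in BA at 48 h against t0, E6 or E8 over all 3 replicates, and BA at 48 h was above every other group within each set of libraries. BA at 48 h had 3661, 1723 and 1901 CPM, BA at 24 h 1520.2, 289.8 and 361 CPM, E6 at 48 h 240.4, 84.5 and 81.1 CPM, E8 at 48 h 260.1, 135 and 139 CPM, and t0 281, 111 and 111 CPM. In the hourly BA series it had 286, 428, 736, 1520.2, 2344, 3091, 1325 and 3661 CPM at 6 to 48 h. No E6 or E8 library of that series was above 324 CPM, and BA was above that level from 12 h on.

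The FN1 promoter window is shown because FN1 is the member called at 48 h over all 3 replicates. It is chr2:215436019-215436318 (GRCh38.p14, minus strand), from RefSeq, and holds 1 copy of TGACGTCA, the palindromic cyclic AMP response element, in capitals. This motif is in 1.85% of the 35116 windows.
FN1: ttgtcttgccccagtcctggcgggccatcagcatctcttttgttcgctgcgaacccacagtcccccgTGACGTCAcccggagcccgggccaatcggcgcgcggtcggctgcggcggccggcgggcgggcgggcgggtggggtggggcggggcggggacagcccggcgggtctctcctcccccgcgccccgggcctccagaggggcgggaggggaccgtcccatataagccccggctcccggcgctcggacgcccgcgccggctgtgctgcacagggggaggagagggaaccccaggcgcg

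**Figure D3:**
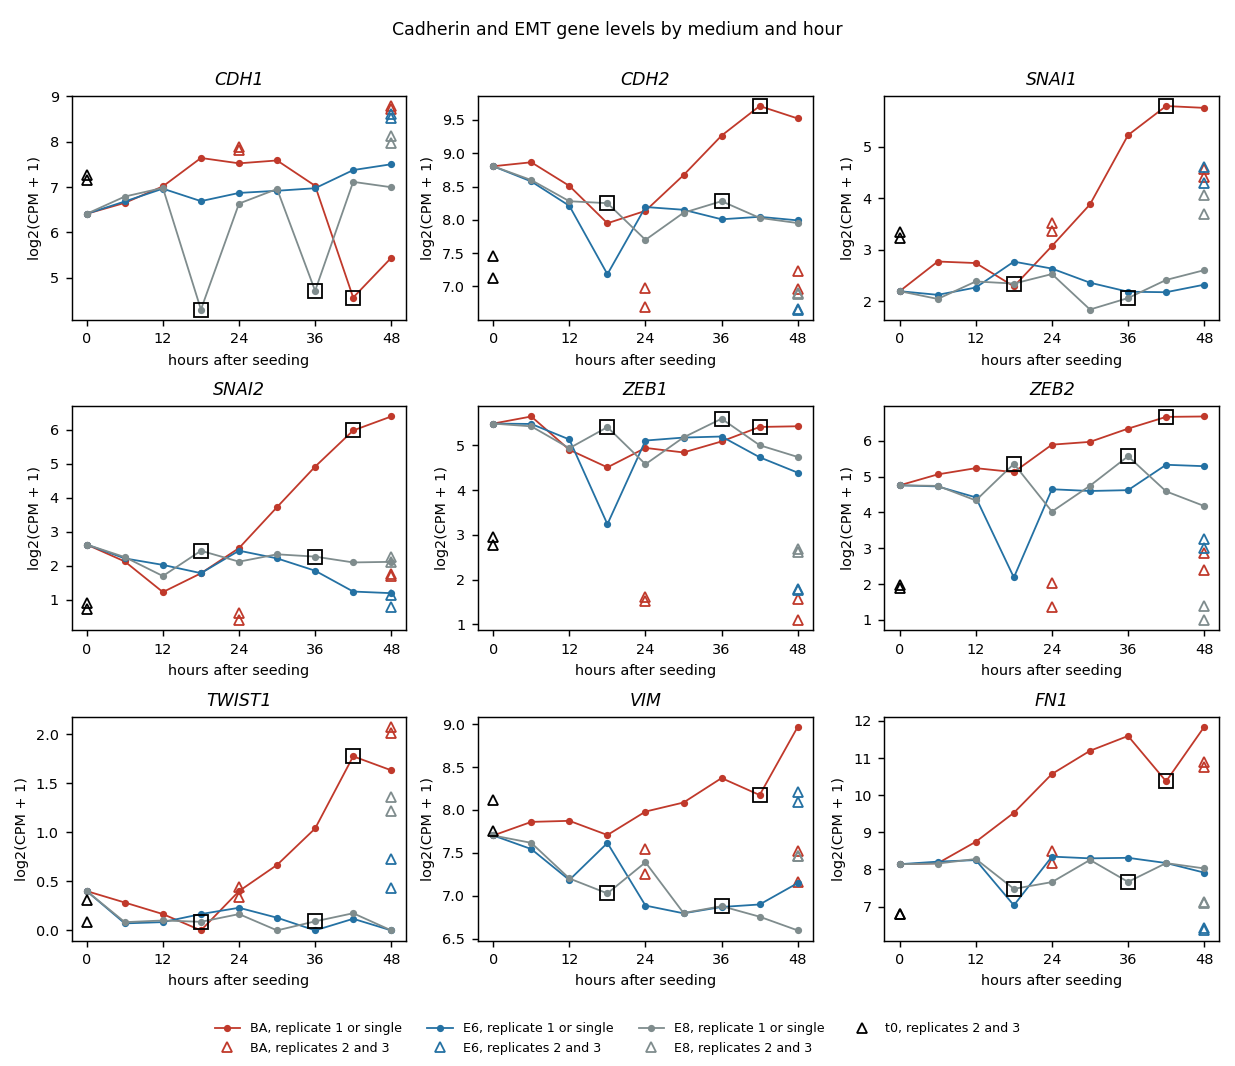
Level of each gene as log2(CPM + 1) (y axis) by hours after seeding (x axis), with lines and filled points for replicate 1 and single libraries, triangles for replicates 2 and 3, and black squares around BA at 42 h, E8 at 18 h and E8 at 36 h. FN1 in BA is above the other media at 48 h in lines and triangles alike, while CDH1 in BA at 48 h is lowest as a line (42.3 CPM) and highest as triangles (423 and 441 CPM).

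Over all 3 replicates, FN1 was the 1 member called in BA at 48 h against t0, where 6.37% of all genes were called. It averaged 2428 ± 1071 CPM in BA at 48 h and 168 ± 98.2 CPM at t0 (SD, n = 3 each), a log2 change of 3.89 ± 0.72 (SE; edgeR adjusted p = 0.00861). SNAI1 did not pass, with 32.1 ± 18.3 CPM in BA and 7.04 ± 3.03 CPM at t0 (log2 change 2.23 ± 0.66, adjusted p = 0.0686), nor did TWIST1 (3.80 ± 1.18, adjusted p = 0.0795). With the replicate number as a block, which called 28.5% of all genes, 5 members were called: SNAI1 (adjusted p = 0.0113), SNAI2 (0.0339), ZEB2 (0.0315), TWIST1 (0.00678) and FN1 (2.91e-06), all higher in BA. The FN1 call was lost without t0 replicate 2 (log2 change 3.61, adjusted p = 0.0652) or replicate 3 (3.64, 0.0710). CDH1 was also called, higher in BA, without BA replicate 1 (adjusted p = 0.0226).

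Against E6 at 48 h, which isolates the added BMP4 and Activin A, FN1 was again the 1 member called, beside 3.52% of all genes. Its means were 2428 ± 1071 CPM for BA against 135 ± 91.0 CPM for E6 (log2 change 4.23 ± 0.73, edgeR adjusted p = 0.00809). CDH1 averaged 302 ± 225 CPM in BA, against 313 ± 115 CPM in E6, a difference within the spread (log2 change -0.03 ± 0.64). With the replicate block (22.1% of all genes) CDH2 (adjusted p = 0.0215), SNAI2 (0.0380) and TWIST1 (0.0154) were also called, all higher in BA. Without E6 replicate 2 or 3 the FN1 call was lost (log2 change 3.91 and 3.90, adjusted p = 0.0620 and 0.0637). The FN1 call was also lost when only the BA and E6 groups entered the fit. Against E8 at 48 h, where 2.44% of genes were called, FN1 averaged 2428 ± 1071 CPM in BA and 178 ± 71.1 CPM in E8 (log2 change 3.81 ± 0.71, adjusted p = 0.0154). That call was lost without E8 replicate 1, 2 or 3 (log2 change 4.14, 3.59 and 3.67, adjusted p = 0.0511, 0.111 and 0.0885). It was also lost when only the BA and E8 groups entered the fit. ZEB2 joined FN1 under the block (adjusted p = 0.00438; 17.6% of all genes).

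No member was called by edgeR or by DESeq2 in BA at 24 h against t0 (1.57% of all genes called by edgeR), BA at 48 h against BA at 24 h (0.455%), E6 against E8 at 48 h (0.144%), E6 at 48 h against t0 (3.88%) or E8 at 48 h against t0 (0.139%). At an unadjusted p below 0.05 there were 1 member in BA at 24 h against t0 (FN1), 4 in BA at 48 h against BA at 24 h (SNAI1, SNAI2, TWIST1 and FN1), and 0 in the other 3. Under the block, which called 8.95% of all genes in BA at 24 h against t0, 10% in BA at 48 h against BA at 24 h, 2.84% in E6 against E8 and 35% in E6 against t0, FN1 was called in BA at 24 h against t0 (adjusted p = 4.84e-04), and SNAI2 (0.0409), TWIST1 (0.0284) and FN1 (5.45e-04) in BA at 48 h against BA at 24 h, all higher at the later time. ZEB2 was then called higher in E6 than in E8 (0.0181). In E6 against t0 the block called CDH1 (0.0395) and ZEB2 (0.0297) higher and CDH2 (0.0467) and ZEB1 (0.0362) lower. In the authors' deposited table, whose header does not name the reference, SNAI1 (log2 fold change 2.01, adjusted p = 0.00408), TWIST1 (3.40, adjusted p = 3.27e-08) and FN1 (3.49, adjusted p = 2.49e-09) passed 0.05 for BA at 48 h, and CDH1 (1.18, adjusted p = 0.0392) for E6 at 48 h.

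The time courses used every hour and all replicates, with a spline of time in each medium. Replicates 2 and 3 entered at 24 and 48 h in BA, but only at 48 h in E6 and E8. The offset between the sets of libraries thus falls unevenly on the media, and its part in the course differences was not tested. With 1 library per hour, 28.6% of genes were called in BA against E6 and 32.2% in BA against E8, and more members were called in both. In BA against E6, 4 members were called, beside 11.6% of all genes: SNAI1 (edgeR adjusted p = 0.00569), SNAI2 (0.0314), TWIST1 (0.00615) and FN1 (6.57e-04). All were higher in BA, with fitted log2 differences averaged over the hours of 1.44, 1.495, 2.37 and 2.06. SNAI2 was not called without BA at 42 h (adjusted p = 0.0608). In BA against E8, 2 members were called, SNAI1 (adjusted p = 3.05e-04) and FN1 (3.22e-04), beside 11.7% of genes. With the block 7 were called there (28.5% of genes), all but CDH1 and ZEB1, and 6 in BA against E6 (27.5%), which added CDH2 (0.00414) and VIM (0.0328). No member was called by edgeR in E6 against E8 (0.232% of genes), with 1 at an unadjusted p below 0.05, SNAI2; DESeq2 was not run on the courses. The block called SNAI2 there, lower in E6 (adjusted p = 0.0234; 1.8% of genes).

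The change in BA at 48 h was also read within each set of libraries, in a fit added after the values had been seen. Replicate 1 is a single library per group, so the difference between the sets has no replicate check on that side and is given as values, with no p. On the log2 scale CDH1 differed between BA and t0 by -0.97 in replicate 1, against 1.63 in the other 2. For VIM the change was 1.29 in replicate 1, with -0.53 in the other 2. SNAI1 was higher in both, by 3.91 and 1.36, and so was SNAI2, by 4.02 and 1.67. FN1 was higher by 3.72 in replicate 1 and 4.09 in replicates 2 and 3. Against E6, SNAI1 differed by 3.84 in replicate 1 and 0.04 in replicates 2 and 3, and CDH1 by -1.99 and 0.19.

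**Figure D4:**
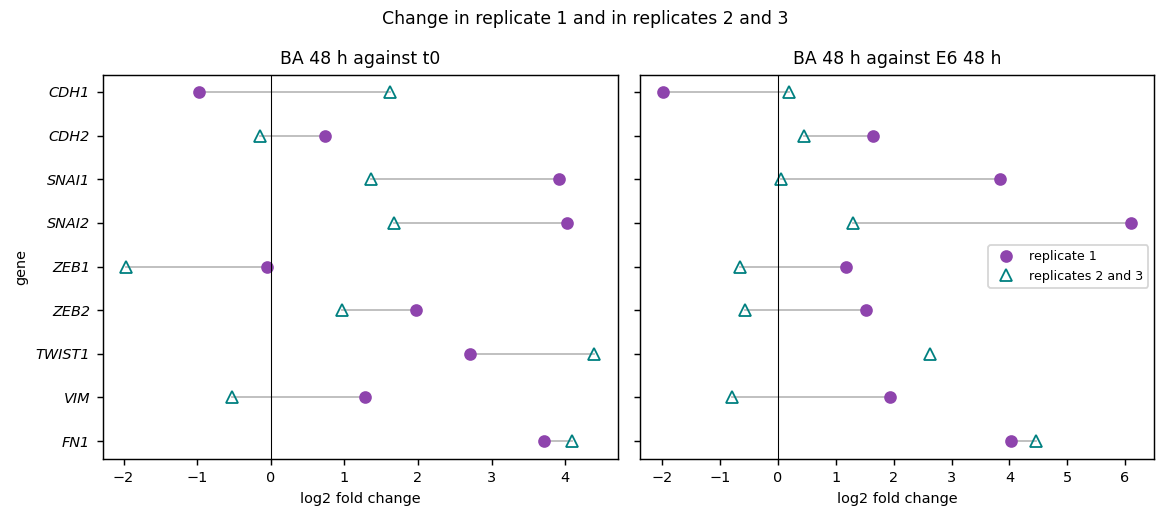
Log2 fold change (x axis) of each gene (y axis) in BA at 48 h against t0 (left) and against E6 at 48 h (right), for replicate 1 (filled points) and replicates 2 and 3 (triangles). TWIST1 in replicate 1 against E6 is left out, since that E6 library has 0 counts. FN1 lies at 3.72 and 4.09 on the left, while CDH1 lies at -0.97 and 1.63.

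In replicates 2 and 3 taken by themselves in that fit, 8 of 9 members were called in BA at 48 h against t0, beside 46.5% of all genes, so a call there is common. CDH1, SNAI1, SNAI2, ZEB2, TWIST1 and FN1 were higher, ZEB1 fell by 1.96 (adjusted p = 1.26e-05) and VIM fell by 0.53 (adjusted p = 0.0108) on the log2 scale.

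The lists of related genes were read by counts. Of 21 tested epithelial junction genes none was called by edgeR in BA at 48 h against t0 or E6, beside 6.37% and 3.52% of all genes. At an unadjusted p below 0.05 there were 3 and 1, and DESeq2 was not run on the lists. The median log2 change of the junction genes from t0 was -0.75 in replicate 1, with 17 of 21 below 0. It was 0.31 in replicates 2 and 3, with 4 of 21 below 0. Of all 21554 genes, 10709 were below 0 in replicate 1 and 10793 in replicates 2 and 3, with medians of 0 and -0.0009. The genes named next were chosen after their values were seen. EPCAM, an epithelial adhesion molecule, was at -1.16 in replicate 1 and 0.03 in replicates 2 and 3. OCLN, the tight junction protein occludin, was at -2.25 and 0.14. GRHL2, an activator of epithelial genes, was at -0.74 and 1.39. Replicate 1 has 1 library per group, so these differences have no replicate check on that side.

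Of 14 tested EMT and mesoderm transcription factors 6 were called higher in BA at 48 h than at t0, beside 4.59% of all genes. Against E6, 3 were called higher, beside 2.03% of all genes, and none was lower in either comparison. The median log2 change of these factors was 2.29 from t0, beside 0.02 for all genes. EOMES, a T-box factor of the primitive streak, had 1017, 42.3 and 44.3 CPM in BA at 48 h, 2.42, 0.198 and 0.201 CPM in E6 at 48 h, and 0.160, 0.224 and 0.139 CPM at t0 (edgeR adjusted p = 0.0251 against E6 and 0.0110 against t0). MESP1, a mesoderm factor, had 43.2, 4.55 and 3.48 CPM in BA at 48 h and 0.0533, 0.0641 and 0.0696 CPM at t0 (adjusted p = 0.0119). HAND1, a factor of mesoderm and amnion, had 262, 11.01 and 10.2 CPM in BA at 48 h and 0.393, 0.226 and 0.172 CPM in E6 at 48 h (adjusted p = 0.0328), with 0 counts in each t0 library. GSC, a homeobox factor of the organizer, had 22.0, 1.04 and 1.06 CPM in BA at 48 h, against 0.107, 0.0320 and 0.104 CPM at t0 (adjusted p = 0.0304). EOMES, MESP1 and HAND1 were above E6 and t0 in every replicate, and highest in BA replicate 1.

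Of 20 mesenchymal and motility genes 6 were called higher and 2 lower in BA at 48 h than at t0, beside 4.59% and 1.78% of all genes. Against E6, 5 were called higher, beside 2.03% of all genes. COL5A1, a fibrillar collagen chain, had 1645, 152 and 143 CPM in BA at 48 h and 38.2, 23.1 and 24.3 CPM at t0 (adjusted p = 0.0111). PDGFRA, a growth factor receptor of mesoderm, had 111, 2.70 and 2.75 CPM in BA, against 1.28, 1.03 and 0.974 CPM at t0 (adjusted p = 0.0301). GSC, COL5A1 and PDGFRA were far higher in BA replicate 1 than in replicates 2 and 3, which were above t0 as well. LOX, the collagen crosslinking enzyme (adjusted p = 0.00414, with 11.2, 7.83 and 6.38 CPM in BA against 1.86, 1.38 and 1.009 CPM at t0), and COL1A2, a collagen chain (adjusted p = 0.00261, with 547, 271 and 273 CPM in BA against 99.2, 60.4 and 52.4 CPM at t0), were also higher. The 2 lower genes, named after their values were seen, were ACTA2 and THY1. Of the 5 genes called against E6, COL5A1, PDGFRB, MMP2 and MMP14 had the largest changes. Of 12 fibronectin receptors and binding partners ITGA5, the alpha chain of the main fibronectin receptor, was called higher than at t0 (adjusted p = 0.0165, with 892, 165.5 and 165.5 CPM in BA against 90.1, 52.9 and 52.5 CPM at t0), and ITGA5 and ITGB5 higher than in E6. That is 1 and 2 of 12 genes, where 4.59% and 2.03% of all genes were called higher.

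GRHL3, a grainyhead factor of surface epithelium, was called higher in BA at 48 h with 6.22, 8.93 and 11.2 CPM, against 0.786, 0.679 and 0.689 CPM in E6 (adjusted p = 0.00528) and 0.906, 0.609 and 0.348 CPM at t0 (adjusted p = 0.00347). KLF5 was the other of 11 EMT repressors and epithelial regulators called against t0, also higher. Of 13 cadherins and catenins, CDH24 and CTNND1 were called higher than at t0, and CTNNA2 and CTNND2 lower than in E6. Of all genes, 4.59% were called higher than at t0, and 2.03% higher and 1.49% lower than in E6.

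The genes most like each member over the 25 hourly libraries were found by Pearson correlation of log2(CPM + 1) among 11558 genes, as a description, since the libraries share media and hours. For CDH1 they included GRHL2 (r = 0.94; 0.86 over all 35 libraries) and INADL (0.92; 0.92). For SNAI1 they were COL5A1 (0.98; 0.78), GATA6-AS1 (0.98; 0.78) and MESP1 (0.97; 0.82), for SNAI2 LGR5 (0.96; 0.91), and for FN1 PCDH10 (0.98; 0.86). ZEB1 was most like PRKAA1 (0.92; 0.98), ZEB2 like CBFA2T2 (0.95; 0.62), VIM like SPARC (0.94; 0.69) and CDH2 like PTPRM (0.94; 0.53). Among the members, SNAI1 and TWIST1 were at r = 0.96 over the 25 libraries and 0.84 over 35. CDH1 and CDH2 were at -0.41 over 25 and -0.69 over 35, and at -0.44 in the hourly series without the 3 libraries low in CDH1. The 25 hourly libraries and the 10 of replicates 2 and 3 had median CDH1 of 123 and 264 CPM and median CDH2 of 295 and 121 CPM. Every r over 35 spans both sets, and the part of their difference in it was not tested.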

How the data were processed

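Poly(A) RNA libraries of H9 cells were counted by the authors as whole read counts per gene, and these counts were deposited without normalization. Alignment to hg38, featureCounts and DESeq2 are named in the submitters' processing notes; versions and strand settings are not given in the sources used here. A deposited table by the authors holds log2 fold changes and p-values. From the counts, CPM and tests were computed with edgeR 4.0.16 in R 4.3.3 (TMM, filterByExpr, quasi-likelihood F-test), with 1 group model over 15 libraries and spline models with 3 degrees of freedom for the courses; DESeq2 1.42.0 was an alternative. Same-numbered replicates deviated together from their group means (r from 0.63 to 0.92), and the number was also used as a block. Replicate 1 lay apart from replicates 2 and 3 in every group, and deviations from a mean of 3 carry that offset into all 3 numbers. The r values therefore cannot show that replicates 2 or 3 are paired across groups. The labels do not say what the number marks. Replicates 2 and 3 differed by more than counting noise. The interaction term by replicate set was run on all 8 comparisons. Members and lists were chosen with earlier results of these data known. Beside the members, at most 4 called genes were named by size of change for each list and comparison. Beyond these, ACTA2 and THY1, and EPCAM, OCLN and GRHL2, which were not called, were named after their values were seen. Tests were checked on simulated counts. Gene positions are from GENCODE release 29. One gene correlated with CDH1 is not reported here.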

Additional observations from a re-analysis of the deposited data

Results flagged for a closer look

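The effect of medium or time had another size in replicate 1 than in replicates 2 and 3 for several members. The values were picked out by an interaction term in edgeR, added after the data were seen and run on all 8 comparisons. Replicate 1 is 1 library per group and the spread comes from replicates 2 and 3, which are close to each other, so the test does not show a difference beyond the variation between cultures and its p-values are left out. Each value is the log2 change in replicate 1 minus that in replicates 2 and 3. In BA 24 h against t0, where 4.12% of all genes were picked out, the member was FN1 by 0.79. In BA 48 h against BA 24 h, where 20.8% of all genes were picked out, the members were CDH1 by -2.99, CDH2 by 1.19, SNAI1 by 1.76, SNAI2 by 1.71, VIM by 1.09 and FN1 by -1.16. In BA 48 h against t0, where 22.2% of all genes were picked out, the members were CDH1 by -2.60, CDH2 by 0.88, SNAI1 by 2.55, SNAI2 by 2.35, ZEB1 by 1.92 and VIM by 1.81. In BA 48 h against E6 48 h, where 18.8% of all genes were picked out, the members were CDH1 by -2.18, CDH2 by 1.20, SNAI1 by 3.79, SNAI2 by 4.81, ZEB1 by 1.83, ZEB2 by 2.08, TWIST1 by 6.24 and VIM by 2.73. In BA 48 h against E8 48 h, where 20.7% of all genes were picked out, the members were CDH1 by -2.23, CDH2 by 1.43, SNAI1 by 2.81, SNAI2 by 5.29, ZEB1 by 2.54, TWIST1 by 7.75 and VIM by 2.56. In E6 48 h against t0, where 9.6% of all genes were picked out, the members were SNAI1 by -1.25, SNAI2 by -2.46, TWIST1 by -7.92 and VIM by -0.92. In E8 48 h against t0, where 14% of all genes were picked out, the members were SNAI2 by -2.94 and TWIST1 by -9.43. No member was picked out in E6 48 h against E8 48 h. The TWIST1 values against E6 and E8, and those of E6 and E8 against t0, rest on replicate 1 libraries with 0 counts, so their size depends on the prior count and is no bound. What separates the sets was not tested.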

How the results depend on the processing

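The FN1 calls in BA at 48 h were lost without certain single libraries, while the log2 change stayed between 3.41 and 4.86. With the replicate block, the members called were 1 (BA 24 h against t0), 3 (BA 48 h against BA 24 h), 5 (BA 48 h against t0), 4 (against E6), 2 (against E8), 1 (E6 against E8) and 4 (E6 against t0), and 7 and 1 in the courses of BA against E8 and E6 against E8; the block changed no call in E8 against t0. With replicates 2 and 3 only, and likewise for them within the interaction fit, the counts were 5, 6, 8, 6, 6, 8 and 7 in that order of the 7 comparisons, and 8 in E8 against t0, where replicates 2 and 3 only called 20.7%, 34.1%, 46.7%, 36.7%, 33.1%, 18.4%, 54.4% and 51.3% of all genes. There VIM was lower in BA at 48 h than at t0 (-0.54 and -0.53) and than in E6 (-0.82 and -0.80), and ZEB1 lower than in E6 (-0.67 and -0.65) and E8 (-1.78 and -1.76). With only the groups compared, BA at 48 h gave 2 against t0, 0 against E6 and 0 against E8, so the FN1 calls against E6 and E8 were lost. DESeq2 gave 3 against t0 (11.8% of all genes). Leaving out 1 replicate gave 0 to 2 calls against t0, 0 to 1 against E6 and 0 to 1 against E8. No share of all genes is given for the fits of only the groups compared or with 1 replicate left out. Those counts are therefore not read as particular to the members. With 1 library per hour the courses gave 8 (BA against E6, with CDH1 at -0.26; 28.6% of genes) and 7 (BA against E8; 32.2%), and a spline with 2 degrees of freedom gave 1 in E6 against E8. For these counts the cause was not tested. Among all values of single members, 9 turned sign with a call, 135 became called, 10 lost a call and 934 kept their side of the threshold, 76 of which had no call and turned sign. Depth limits TWIST1 most, with 0 to 106 counts a library, and the 20 groups of 1 library have no replicate check.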
